A study of Rattus norvegicus with 9 samples.

Results

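The semaphorins, plexins, ephrins and Eph receptors are 4 families of guidance genes. They were followed in cultured rat chondrocytes, the cells that make cartilage matrix. Members were taken by gene name: every row of the deposited table named as a class 3 to 7 semaphorin, a plexin, an ephrin or an Eph receptor. This gave 50 of 18924 genes: 20 semaphorins, 9 plexins, 8 ephrins and 13 Eph receptors. The cells were primary chondrocytes of Sprague-Dawley rats at passage 1 or 2, grown in DMEM with fetal bovine serum, and poly-A RNA was sequenced after 24 h. The group named RPTi received rat plasma, thrombin and an inhibitor whose identity the labels leave out. RPT cells received rat plasma and thrombin, the clotting protease, while RP cells received the plasma without thrombin. All 3 groups thus shared the plasma, and each had 3 libraries. Whether these came from separate animals or cultures is not labelled; the p-values therefore reflect the scatter among these samples alone, and that scatter may be technical. The series title places thrombin's inflammatory role in chondrocytes within MEK, Erk1/2 and Stat3 signalling.

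Semaphorins are secreted or membrane-bound ligands, and plexins are their receptors. Class 3 semaphorins mostly need a neuropilin as co-receptor, and plexins signal through small GTPases to the cytoskeleton and to cell adhesion. Ephrins are membrane-bound ligands of the Eph receptor tyrosine kinases and signal between touching cells in both directions. Ephrin-A proteins are held by a lipid anchor, whereas ephrin-B proteins span the membrane. These families are best known from axon guidance, and in mouse bone semaphorin 3A, semaphorin 4D with plexin-B1, and ephrin-B2 with EphB4 take part in the exchange between osteoblasts and osteoclasts.

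Library totals were 31914905 to 37125039 counts in RPTi, 31877265 to 37009972 in RPT and 33520888 to 43962783 in RP, so 1 count was worth 0.0227 to 0.0314 CPM (counts scaled to library size with TMM factors). The cell label was checked against 11 chondrocyte markers, among them Col2a1 and Acan, and all 11 were tested. Their summed level was 73788 to 80096 CPM in RPTi, 29986 to 31807 CPM in RPT and 47793 to 48819 CPM in RP. All 11 fell in RPT against RP, all 11 rose in RPTi against RPT, and 9 rose in RPTi against RP. In bulk samples such as these, fewer cells of a type and less RNA per cell cannot be told apart. As with these markers, more members fell than rose in RPT against RP, and more rose than fell in RPTi against RPT. In RPTi against RP, where most of these markers rose, the members were split between rises and falls. The part of the chondrocyte markers in the member results was not tested.

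The families were well represented, and 45 of the 50 members had enough counts to be tested. In RPTi, RPT and RP alike, Sema3c had the highest FPKM (fragments scaled by gene length and library total) of all members. Its mean level was 172 FPKM in RPTi, 152 FPKM in RPT and 194 FPKM in RP. Plxnb2, a receptor of class 4 semaphorins, came next at 95.3, 111 and 110 FPKM in RPTi, RPT and RP. Among ephrins Efna1 led with 34.1, 39.4 and 27.6 FPKM in RPTi, RPT and RP. Among Eph receptors the order depended on the group: Ephb4 led in RPTi and RP and Epha2 led in RPT.

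**Figure D1:**
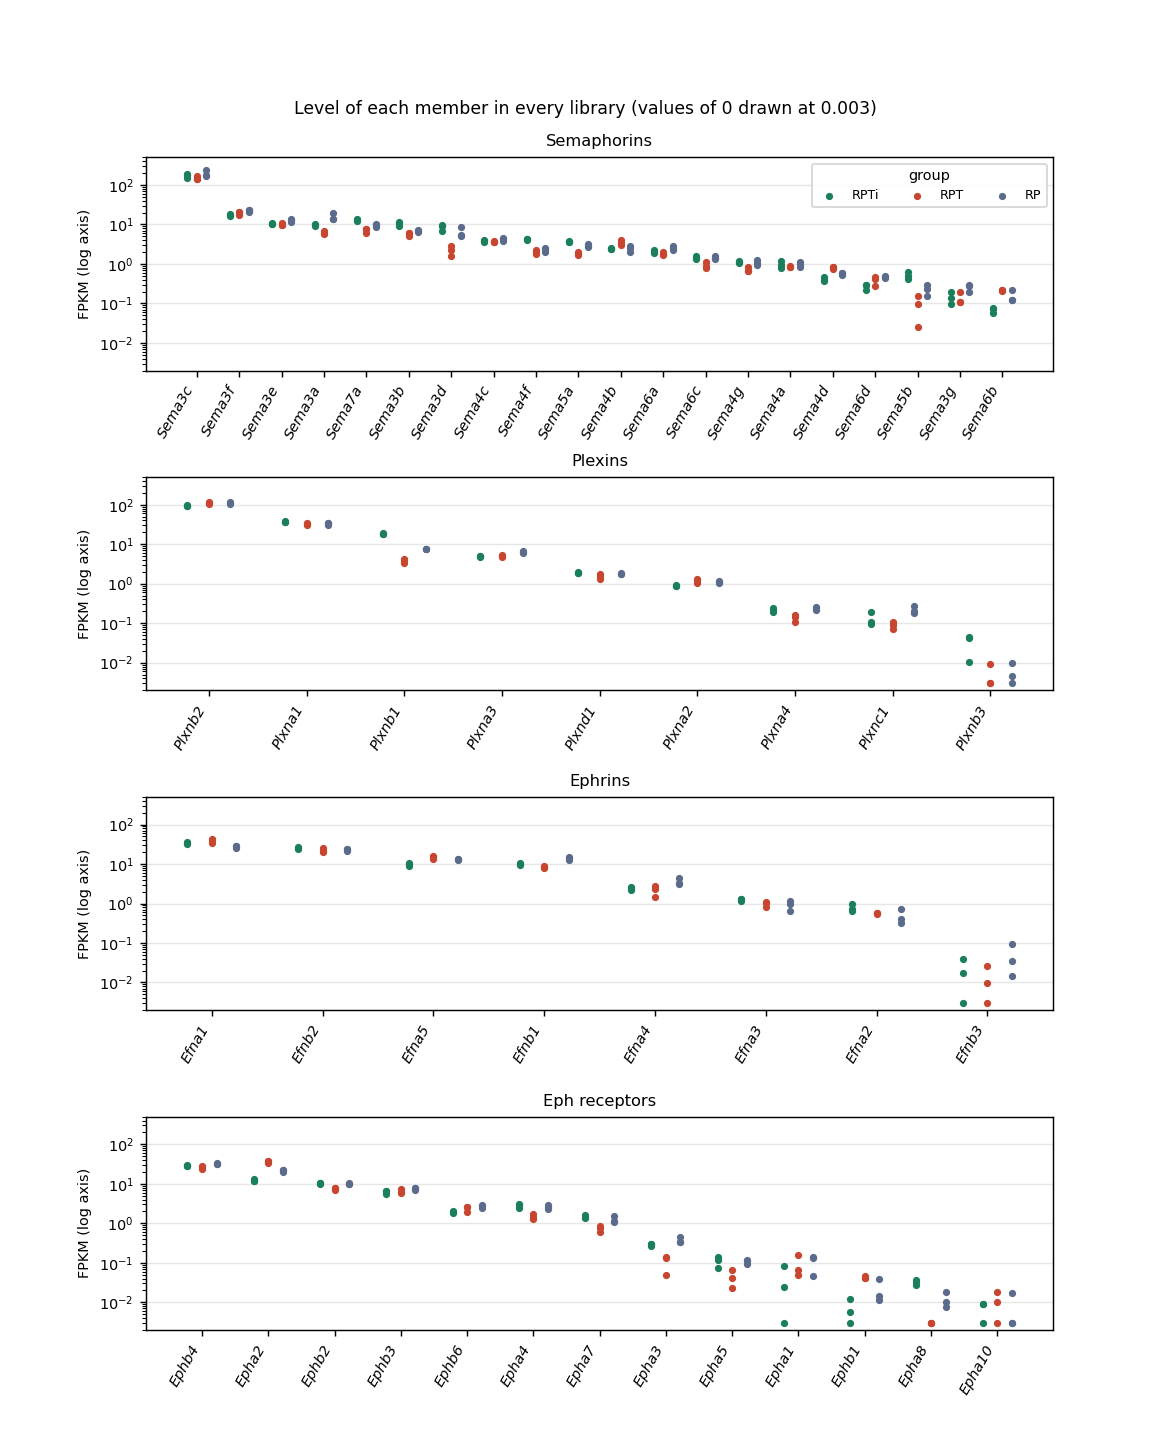
FPKM (log axis) of each of the 50 members in every library, by class, with the RPTi, RPT and RP libraries side by side and members ordered by level. Sema3c, Plxnb2, Efna1 and Ephb4 have the highest level of their class over all libraries, while Epha2 reaches 36.3 FPKM on average in RPT.

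More of these genes fell than rose in RPT against RP, and more rose than fell in RPTi against RPT. A gene was called when its adjusted p in edgeR's quasi-likelihood test, corrected over all 13856 tested genes, was below 0.05, and rose and fell are used only for called genes. In RPT against RP, 4 members rose and 22 fell of 45 tested; over all tested genes 13.6% rose and 15.2% fell, 28.9% together. The median log2 fold change was -0.32 over the tested members and -0.00071 over all genes. In RPTi against RPT, 21 members rose and 6 fell, beside 20.4% and 21.1% of all genes, 41.5% together. Here the median was 0.25 over the members and -0.0083 over all genes. These comparisons share the RPT libraries, so a value in RPT enters both with opposite sign and neither is a check of the other. In RPTi against RP, which uses no RPT level, 8 members rose and 9 fell, beside 11.9% and 12.3% of all genes, 24.2% together, with medians of -0.12 and -0.0064. Across the 3 groups 36 of the 45 members passed the F test, which called 46.7% of all genes.

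By class, 10 of 20 semaphorins, 4 of 8 tested plexins, 2 of 7 tested ephrins and 6 of 10 tested Eph receptors fell in RPT against RP. There 2 semaphorins, 1 ephrin and 1 Eph receptor rose, beside 13.6% rising and 15.2% falling over all tested genes. In RPTi against RPT, 9 semaphorins, 4 plexins, 2 ephrins and 6 Eph receptors rose. In that comparison 3 semaphorins, 1 plexin, 1 ephrin and 1 Eph receptor fell, beside 20.4% rising and 21.1% falling. In RPTi against RP, 5 semaphorins, 2 plexins and 1 ephrin rose, beside 11.9% of all genes. Those that fell there were 4 semaphorins, 1 plexin, 2 ephrins and 2 Eph receptors, beside 12.3%. Leaving out single libraries changed some counts. In RPT against RP the members that rose numbered 2 without RP replicate 3 or RPT replicate 2, where 10.8% and 12.1% of all genes rose. In RPTi against RP, 5 rose and 4 fell without RP replicate 1, where the shares of all genes were lower too, at 8.37% and 8.73%. With library totals alone in place of TMM, the split over all genes moved towards falls in the RPTi comparisons. It became 2359 higher and 3788 lower in RPTi against RPT, where 18 members rose and 7 fell, against 2825 higher and 2920 lower with TMM. In RPTi against RP it became 1318 higher and 2280 lower, where 7 members rose and 11 fell, against 1647 higher and 1705 lower with TMM.

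**Figure D2:**
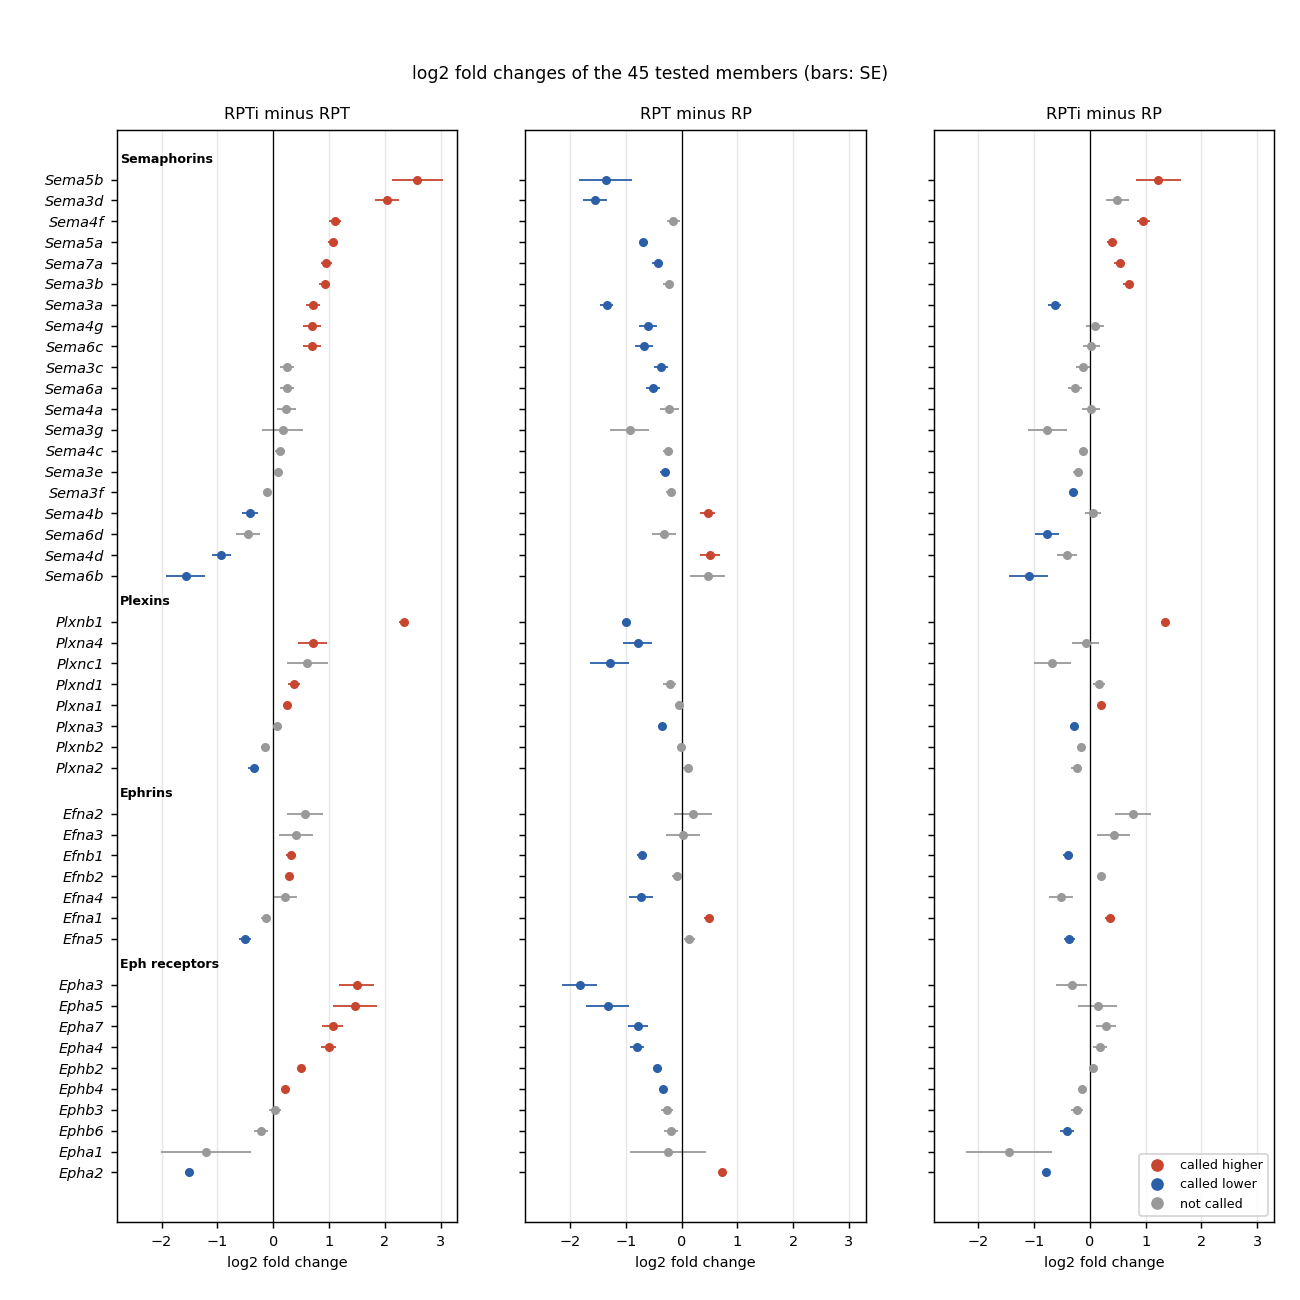
log2 fold changes with SE (standard error) of the 45 tested members, by class, for RPTi minus RPT, RPT minus RP and RPTi minus RP; color marks members called higher, called lower or not called. Most called points lie above 0 in RPTi minus RPT (21 of 27) and below 0 in RPT minus RP (22 of 26), and Epha2 lies on the opposite side of most Eph receptors in both.

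Promoter windows from RefSeq on assembly GRCr8, running from 250 bases before to 50 bases after each start, matched 40 of the 50 members. Those of Plxnb1 and Sema3d, whose levels were lower in RPT than in either other group, and of Epha2, whose level was higher in RPT, are shown because the results turn on these genes. Capitals mark matches, on either strand, to an AP-1 site (TGANTCA), a CRE (TGACGTCA), a GC box (GGGCGG) or an ETS core (CCGGAA). The windows are chr8:118622911-118623210 on the plus strand for Plxnb1, chr4:23460922-23461221 on the minus strand for Sema3d and chr5:158888379-158888678 on the plus strand for Epha2.
Plxnb1: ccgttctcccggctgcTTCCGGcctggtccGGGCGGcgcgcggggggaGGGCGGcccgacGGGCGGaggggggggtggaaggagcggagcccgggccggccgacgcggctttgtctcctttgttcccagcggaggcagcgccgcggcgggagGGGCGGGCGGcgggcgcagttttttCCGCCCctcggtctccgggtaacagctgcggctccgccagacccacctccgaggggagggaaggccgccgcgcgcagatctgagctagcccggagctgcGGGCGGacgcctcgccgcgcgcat
Sema3d: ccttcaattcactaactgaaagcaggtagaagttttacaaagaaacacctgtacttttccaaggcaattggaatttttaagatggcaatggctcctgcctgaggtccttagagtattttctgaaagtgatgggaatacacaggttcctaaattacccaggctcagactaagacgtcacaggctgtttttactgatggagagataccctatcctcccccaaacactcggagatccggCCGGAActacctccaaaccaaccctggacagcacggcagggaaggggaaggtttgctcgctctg
Epha2: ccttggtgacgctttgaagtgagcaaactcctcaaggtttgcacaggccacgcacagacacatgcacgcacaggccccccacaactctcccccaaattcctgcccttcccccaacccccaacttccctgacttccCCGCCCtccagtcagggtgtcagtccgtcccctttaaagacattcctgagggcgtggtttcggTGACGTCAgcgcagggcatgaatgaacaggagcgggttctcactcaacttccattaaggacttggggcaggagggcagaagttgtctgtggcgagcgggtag
The Plxnb1 window was GC-rich, at 77.3%, and held 7 GC boxes, some of which overlap, and 1 ETS core. The Sema3d window had 47.3% GC and held 1 ETS core and no GC box. The Epha2 window had 58.3% GC and held 1 CRE and 1 GC box. A CRE was found in 1 of the 40 member windows, that of Epha2, and in 1.91% of all 27457 windows. The ETS core stood in 3 member windows, or 7.5%, those of Efna2, Plxnb1 and Sema3d, and in 15.8% of all windows. A GC box stood in 55.0% of the member windows and in 34.9% of all windows, beside a median GC content of 62.1% and 52.3%. An AP-1 site stood in 2.5% of member windows, that of Epha10, and in 7.33% of all. These matches describe letters in a window and are no evidence of binding.

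Among the secreted class 3 semaphorins, Sema3a and Sema3d fell with thrombin and were higher when the inhibitor was present. Sema3a, a repellent ligand that acts through neuropilin-1 and A-type plexins, had 33.0, 32.2 and 35.9 CPM in RPTi, 22.8, 19.7 and 19.1 CPM in RPT, and 46.3, 46.5 and 64.1 CPM in RP. The 3 groups did not overlap, with RPTi between the others. Sema3a fell by 1.35 on the log2 scale in RPT against RP (SE 0.12, adjusted p = 5.14e-06), rose by 0.71 in RPTi against RPT (SE 0.12, adjusted p = 0.000504) and stayed lower in RPTi than in RP by a log2 fold change of -0.63 (SE 0.12, adjusted p = 0.00207).

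Sema3d, another secreted class 3 ligand, had 47.8, 35.7 and 48.1 CPM in RPTi, 13.5, 10.7 and 7.65 CPM in RPT, and 25.0, 26.9 and 41.8 CPM in RP. Every RPT library lay below every library of the other groups, whereas RPTi and RP overlapped. Its log2 fold change was -1.55 in RPT against RP (SE 0.22, adjusted p = 0.000199) and 2.04 in RPTi against RPT (SE 0.22, adjusted p = 9.74e-06), a 4.12-fold rise. Between RPTi and RP it was 0.49 and not called (adjusted p = 0.102), but without RP replicate 3, the highest RP library, it was 0.76 and called (adjusted p = 0.0106).

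Sema3b showed no thrombin call and was highest with the inhibitor. It had 29.1, 23.7 and 28.1 CPM in RPTi, 14.3, 15.4 and 12.9 CPM in RPT, and 16.5, 17.8 and 15.7 CPM in RP. RPTi stood above the other groups, which did not overlap either but lay close together. Sema3b rose by 0.93 in RPTi against RPT (SE 0.10, adjusted p = 8.96e-06) and by 0.70 in RPTi against RP (SE 0.10, adjusted p = 0.000246), both on the log2 scale, while RPT against RP gave -0.23 (adjusted p = 0.105).

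Sema3c, which binds neuropilins and was the member with the highest FPKM, had 937, 780 and 981 CPM in RPTi, 838, 728 and 699 CPM in RPT, and 843, 884 and 1202 CPM in RP. The third RP library stood apart upward, and the call in RPT against RP (log2 fold change -0.37, adjusted p = 0.0428) rested on it in part: without RP replicate 3 the value was -0.19 (adjusted p = 0.173), and the call was also lost without RPT replicate 2 or 3 or RPTi replicate 1 or 3 (adjusted p between 0.0519 and 0.121) and with library totals alone (adjusted p = 0.0616). Sema3e, a direct ligand of plexin-D1, fell in RPT against RP with a log2 fold change of -0.30 (adjusted p = 0.0139), a call lost without RP replicate 1 or 3 or RPT replicate 1 (adjusted p between 0.0507 and 0.0605). Sema3f, a neuropilin-2 ligand, fell in RPTi against RP with a log2 fold change of -0.30 (adjusted p = 0.0172), a call lost without RP replicate 1 or 2 or RPTi replicate 1 or 3 (adjusted p between 0.0532 and 0.0724). Sema3g had 0.142, 0.134 and 0.252 FPKM in RPTi, RPT and RP and was not called in any comparison. Its log2 fold change was -0.93 in RPT against RP (SE 0.35, adjusted p = 0.067), with no overlap between RPT and RP. Without RPT replicate 2 the value was -1.26 and called (adjusted p = 0.0356).

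Of the membrane-bound semaphorins, those of class 5 fell with thrombin and rose with the inhibitor. Sema5a, a transmembrane ligand with thrombospondin repeats, had 39.5, 40.6 and 39.5 CPM in RPTi, 18.5, 17.2 and 20.9 CPM in RPT, and 30.0, 27.9 and 33.1 CPM in RP. No groups overlapped, and RPTi was the highest. Its log2 fold change was -0.68 in RPT against RP (SE 0.09, adjusted p = 9.15e-05), 1.08 in RPTi against RPT (SE 0.09, adjusted p = 7.72e-07) and 0.39 in RPTi against RP (SE 0.09, adjusted p = 0.0053). The Sema5a gene overlaps a protein-coding locus in GRCr8, and the strand of the counting is not given in the sources used here.

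Sema5b, its close relative, was scarce, with 2.06, 1.42 and 1.70 CPM in RPTi, 0.0784, 0.310 and 0.488 CPM in RPT, and 0.950, 0.506 and 0.740 CPM in RP. The RPT libraries were the lowest and RPTi the highest, without overlap. It rose by 2.59 on the log2 scale in RPTi against RPT (SE 0.45, adjusted p = 0.000556). The other calls on Sema5b were fragile. In RPT against RP the log2 fold change of -1.36 (adjusted p = 0.0464) lost its call without RP replicate 1 or 3, without RPT replicate 1 or 2, and without any 1 of the RPTi libraries (adjusted p between 0.0587 and 0.156); it was -0.88 without RPT replicate 1. In RPTi against RP the value of 1.22 (adjusted p = 0.0417) lost its call without any 1 of the RP or RPTi libraries (adjusted p between 0.0512 and 0.145).

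Sema4f, a transmembrane class 4 semaphorin, was higher with the inhibitor than in both other groups. It had 17.5, 17.1 and 16.8 CPM in RPTi, 7.66, 9.07 and 7.17 CPM in RPT, and 8.89, 9.83 and 7.71 CPM in RP. RPT and RP overlapped, and each RPTi library lay above all of them. The log2 fold change was 1.10 in RPTi against RPT (SE 0.11, adjusted p = 5.51e-06) and 0.96 in RPTi against RP (SE 0.11, adjusted p = 4.61e-05), against -0.14 in RPT against RP (adjusted p = 0.382).

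Sema7a, a lipid-anchored ligand of plexin-C1 and integrins, had 37.5, 33.9 and 34.6 CPM in RPTi, 19.1, 20.0 and 15.6 CPM in RPT, and 24.6, 26.3 and 22.5 CPM in RP. The groups did not overlap and RPTi was again the highest. Its log2 fold changes were -0.42 in RPT against RP (adjusted p = 0.00643), 0.95 in RPTi against RPT (adjusted p = 6.29e-06) and 0.53 in RPTi against RP (adjusted p = 0.0016).

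Sema4b and Sema4d went the other way from most of the family. Sema4d, the ligand of plexin-B1, had 1.59, 1.65 and 1.95 CPM in RPTi, 3.40, 3.50 and 2.99 CPM in RPT, and 2.10, 2.38 and 2.46 CPM in RP. RPT was the highest and RPTi the lowest, with no overlap. The fall in RPTi against RPT (log2 fold change -0.93, adjusted p = 0.00104) held in each alternative. The rise in RPT against RP (0.51, adjusted p = 0.0414) was lost without RP replicate 1, 2 or 3, RPT replicate 1 or 2, or RPTi replicate 1 or 2 (adjusted p between 0.0503 and 0.133), and in DESeq2 (adjusted p = 0.055). Sema4b had log2 fold changes of 0.47 in RPT against RP (adjusted p = 0.0219) and -0.42 in RPTi against RPT (adjusted p = 0.0278). The first call was lost without RP replicate 3 or RPT replicate 2 (adjusted p of 0.0763 and 0.0894), and the second without RPT replicate 2 or any 1 of the RPTi libraries (adjusted p between 0.0619 and 0.115).

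Of the remaining class 4 and class 6 members, Sema4g and Sema6c fell in RPT against RP by 0.60 and 0.67 on the log2 scale (adjusted p of 0.0157 and 0.00689) and rose in RPTi against RPT by 0.70 and 0.69 (adjusted p of 0.00444 and 0.0035). The Sema4g fall was lost without RP replicate 1 or RPT replicate 1 (adjusted p of 0.0822 and 0.0584). Sema6a, a ligand of plexin-A2 and plexin-A4, fell in RPT against RP, with a log2 fold change of -0.51 (adjusted p = 0.00799). The Sema6a gene overlaps 3 annotated loci in GRCr8, among them a protein-coding locus. Sema6b, at 0.306, 0.226 and 0.279 CPM in RPTi, 0.811, 0.805 and 0.823 CPM in RPT, and 0.814, 0.477 and 0.449 CPM in RP, was lowest with the inhibitor. It fell in RPTi against RPT (log2 fold change -1.57, adjusted p = 0.00296). Its fall in RPTi against RP (-1.10, adjusted p = 0.0392) was lost without RP replicate 1, RPT replicate 1 or 2, or any 1 of the RPTi libraries (adjusted p between 0.0531 and 0.206). Sema6d, a plexin-A1 ligand, fell in RPTi against RP (-0.77, adjusted p = 0.0223), a call lost without RP replicate 1 or 3 or RPTi replicate 3 (adjusted p between 0.06 and 0.0828). Sema4a and Sema4c were not called in any comparison, but Sema4c was called lower in RPT against RP without RP replicate 2 (adjusted p = 0.0269).

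Plxnb1 had the smallest adjusted p of the members in RPTi against RPT. It encodes plexin-B1, the semaphorin 4D receptor. Plxnb1 had 133, 123 and 126 CPM in RPTi, 25.9, 27.4 and 22.1 CPM in RPT, and 49.9, 49.8 and 50.8 CPM in RP. Its means were 127 ± 5.60 CPM in RPTi, 25.2 ± 2.72 CPM in RPT and 50.2 ± 0.513 CPM in RP (SD, n = 3 each). The 3 groups were far apart, with thrombin alone lowest and thrombin plus inhibitor highest. Plxnb1 fell by 1.00 on the log2 scale in RPT against RP (SE 0.08, adjusted p = 1.77e-06). It rose by 2.34 in RPTi against RPT (SE 0.08, adjusted p = 7.46e-10), a 5.06-fold rise, and by 1.34 in RPTi against RP (SE 0.08, adjusted p = 1.49e-07), a 2.54-fold rise. No annotated gene overlaps Plxnb1 in GRCr8.

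The other B-type plexin with counts enough to test, Plxnb2, was steady by comparison. It had 631, 666 and 627 CPM in RPTi, 716, 760 and 660 CPM in RPT, and 714, 754 and 681 CPM in RP, and no comparison called it. RPT and RP overlapped broadly, and RPTi lay below RP and overlapped the lower end of RPT. Its RPTi values depended on the treatment of the data: the adjusted p in RPTi against RPT was 0.0732, but 0.0101 with library totals alone and 0.0139 without RPT replicate 3, and in RPTi against RP it was 0.085, but 0.0221 and 0.0353 under those settings.

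A-type plexins, which pair with neuropilins to receive class 3 semaphorins, changed by less than Plxnb1 in each comparison. Plxna1 had 339, 347 and 327 CPM in RPTi, 280, 300 and 274 CPM in RPT, and 302, 304 and 275 CPM in RP, so that RPTi stood above groups that overlapped each other. It rose in RPTi against RPT (log2 fold change 0.25, SE 0.06, adjusted p = 0.00529). The RPTi against RP value of 0.20 (adjusted p = 0.026) was not called without RP replicate 1 or 3 or RPTi replicate 1 or 2 (adjusted p between 0.0546 and 0.109), nor with library totals alone (adjusted p = 0.0678). Plxna3 had 37.9, 37.2 and 36.7 CPM in RPTi, 34.9, 38.0 and 34.4 CPM in RPT, and 48.4, 45.4 and 42.4 CPM in RP. Here RP was above both other groups, which overlapped. Plxna3 fell in RPT against RP (log2 fold change -0.35, adjusted p = 0.00318) and in RPTi against RP (-0.29, adjusted p = 0.0117), the second call lost without RP replicate 1 (adjusted p = 0.0705).

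Plxna2 fell in RPTi against RPT by 0.35 on the log2 scale (adjusted p = 0.0141). Plxna4, at 0.218, 0.141 and 0.240 FPKM in RPTi, RPT and RP, had log2 fold changes of -0.79 in RPT against RP (adjusted p = 0.0347) and 0.71 in RPTi against RPT (adjusted p = 0.0416). Both Plxna4 calls were fragile: the first was lost without RP replicate 1, 2 or 3 or RPT replicate 1 or 3 (adjusted p between 0.0523 and 0.131), and the second without RP replicate 1, 2 or 3, RPT replicate 1 or 3, or RPTi replicate 1 or 3 (adjusted p between 0.0525 and 0.154). Plxnd1, the semaphorin 3E receptor, rose in RPTi against RPT by 0.37 (adjusted p = 0.0159), a call lost without RPTi replicate 2 (adjusted p = 0.0648). Plxnc1, the semaphorin 7A receptor, had 0.918, 0.517 and 0.475 CPM in RPTi, 0.418, 0.495 and 0.335 CPM in RPT, and 1.27, 0.834 and 0.951 CPM in RP. RP lay above RPT throughout, and RPTi overlapped both. Plxnc1 fell in RPT against RP (log2 fold change -1.29, SE 0.35, adjusted p = 0.0142), a call lost without RP replicate 1 (adjusted p = 0.0712).

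**Figure D3:**
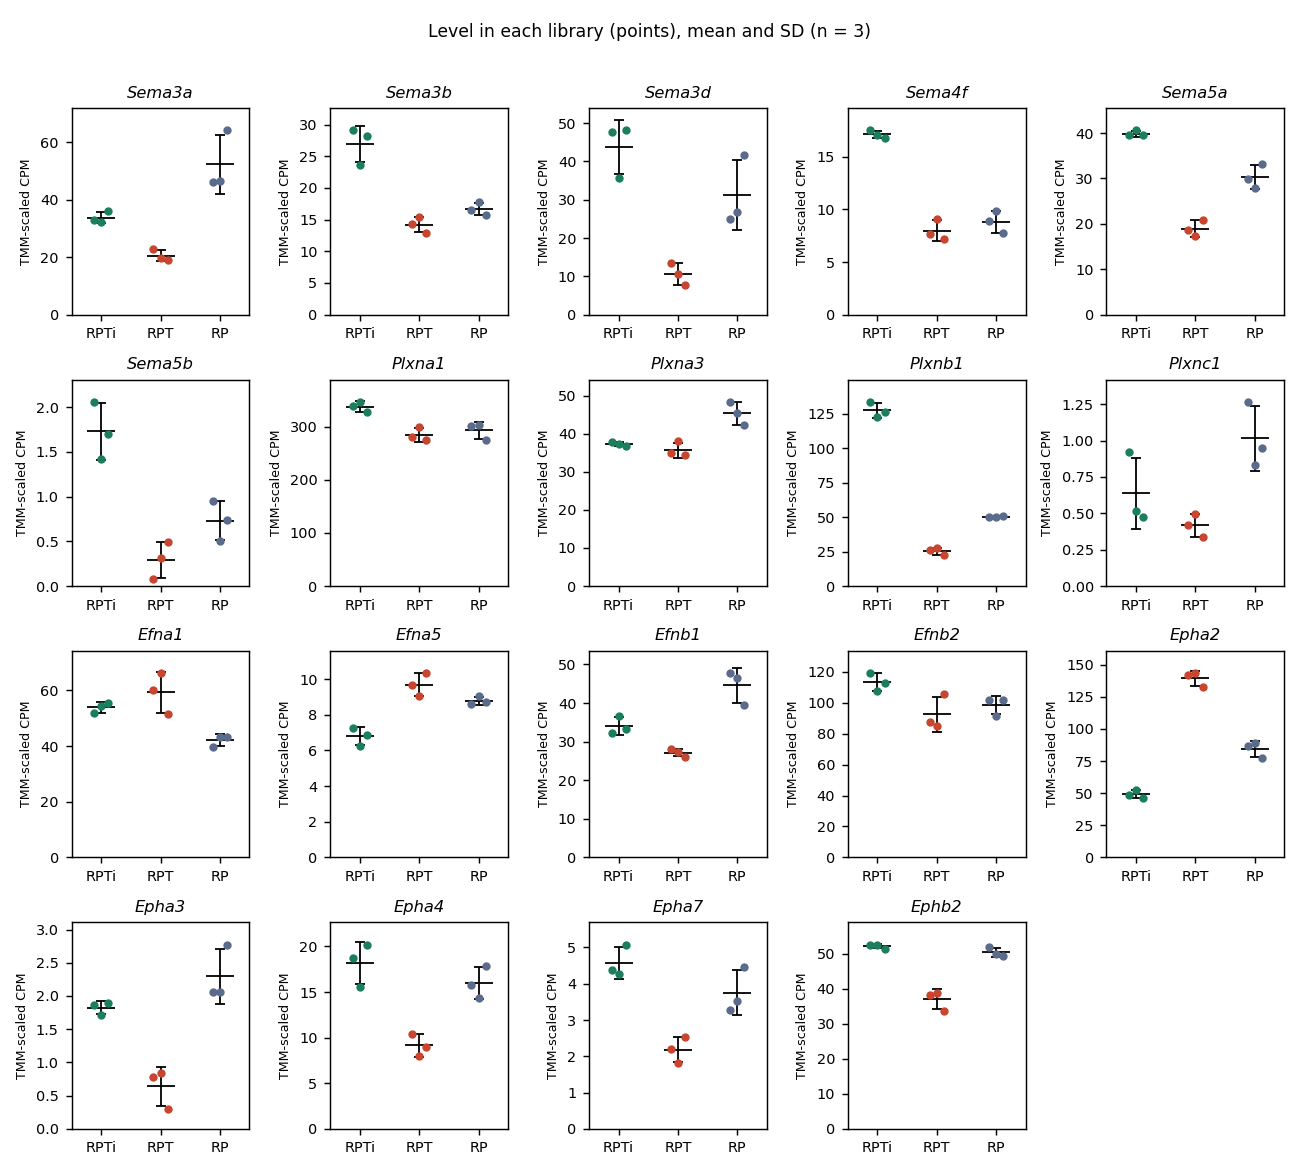
TMM-scaled CPM in each library (points) with the mean and SD (n = 3) in RPTi, RPT and RP, for the 19 members with full values; each axis starts at 0. Plxnb1 is lowest in RPT (22.1 to 27.4 CPM) and highest in RPTi (123 to 133 CPM), and Epha2 is highest in RPT (133 to 143 CPM) and lowest in RPTi (46.4 to 52.5 CPM).

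Of the 7 tested ephrin ligands, 3 were called in each comparison, or 42.9%, and only Efnb1 was among the 3 every time. Over all tested genes 28.9% were called in RPT against RP, 41.5% in RPTi against RPT and 24.2% in RPTi against RP. Efnb1, the transmembrane ephrin-B1, had 32.1, 36.7 and 33.4 CPM in RPTi, 28.1, 27.3 and 26.1 CPM in RPT, and 47.7, 46.6 and 39.4 CPM in RP. The groups did not overlap, and RPTi lay between the others. Efnb1 fell by 0.71 on the log2 scale in RPT against RP (SE 0.09, adjusted p = 5.28e-05), rose by 0.32 in RPTi against RPT (SE 0.09, adjusted p = 0.00917) and was lower in RPTi than in RP with a log2 fold change of -0.39 (SE 0.09, adjusted p = 0.00534).

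Efna1, the lipid-anchored ephrin-A1 and a preferred ligand of EphA2, had 51.9, 54.4 and 55.6 CPM in RPTi, 60.2, 66.2 and 51.5 CPM in RPT, and 39.5, 43.4 and 43.2 CPM in RP. Both thrombin groups stood above RP and overlapped each other. It rose in RPT against RP by 0.50 (SE 0.09, adjusted p = 0.00106) on the log2 scale. RPTi against RP gave 0.36 (adjusted p = 0.01), not called without RP replicate 1 (adjusted p = 0.0524). RPTi against RPT gave -0.14 and was not called (adjusted p = 0.235), but was called without RPT replicate 3 (adjusted p = 0.0258).

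Efna5, also lipid-anchored, was lowest with the inhibitor: 7.26, 6.27 and 6.90 CPM in RPTi, 9.67, 9.04 and 10.3 CPM in RPT, and 8.59, 9.05 and 8.72 CPM in RP. RPT and RP overlapped narrowly, and all RPTi libraries lay below both. It fell in RPTi against RPT (log2 fold change -0.51, SE 0.10, adjusted p = 0.00137). The fall in RPTi against RP (-0.37, adjusted p = 0.0183) was lost without RP replicate 2 or RPTi replicate 2 (adjusted p of 0.0501 and 0.0726). Efnb2, ligand of EphB4, had 119, 108 and 113 CPM in RPTi, 87.6, 84.8 and 106 CPM in RPT, and 102, 91.8 and 102 CPM in RP. All RPTi libraries were above the rest, and RPT and RP overlapped. The rise of Efnb2 in RPTi against RPT (0.29, adjusted p = 0.0148) was lost without RPT replicate 1 or 2 or RPTi replicate 1 (adjusted p between 0.0537 and 0.0667) and with library totals alone (adjusted p = 0.0502).

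Efna4 fell in RPT against RP by 0.72 on the log2 scale (adjusted p = 0.0246), a call lost without RP replicate 3 or RPT replicate 3 (adjusted p of 0.0944 and 0.0639). Efna2 and Efna3, with mean levels from 0.481 to 1.24 FPKM, were not called in any comparison. Without RP replicate 3, Efna2 was called higher in RPTi against RP (adjusted p = 0.0398).

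Eph receptors split: Epha2 rose with thrombin and fell with the inhibitor, while every other Eph receptor called in those comparisons did the reverse, in comparisons that share the RPT libraries. Epha2, the receptor of A-type ephrins that is studied in epithelial and tumour cells, had 48.2, 52.5 and 46.4 CPM in RPTi, 142, 143 and 133 CPM in RPT, and 86.7, 89.3 and 77.6 CPM in RP. The means were 49.0 ± 3.10 CPM in RPTi, 139 ± 5.82 CPM in RPT and 84.5 ± 6.16 CPM in RP (SD, n = 3 each). No groups overlapped, and RPT was the highest. Epha2 rose by 0.72 on the log2 scale in RPT against RP (SE 0.07, adjusted p = 1.02e-05), a 1.65-fold rise. It fell by 1.51 in RPTi against RPT (SE 0.07, adjusted p = 7.79e-09) and by 0.79 in RPTi against RP (SE 0.07, adjusted p = 7.81e-06). No annotated gene overlaps Epha2 in GRCr8.

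Epha4, which binds ephrins of both types, had 18.8, 15.6 and 20.2 CPM in RPTi, 10.4, 7.96 and 9.03 CPM in RPT, and 15.8, 14.3 and 17.8 CPM in RP. RPT lay below both other groups, which overlapped. Its log2 fold change was -0.81 in RPT against RP (SE 0.13, adjusted p = 0.000449) and 0.99 in RPTi against RPT (SE 0.13, adjusted p = 4.48e-05), while RPTi against RP gave 0.19 (adjusted p = 0.301).

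Epha3 and Epha7, further receptors of A-type ephrins, were also lowest in RPT. Epha3 had 1.86, 1.71 and 1.90 CPM in RPTi, 0.784, 0.836 and 0.305 CPM in RPT, and 2.06, 2.05 and 2.77 CPM in RP. RPT was lowest and RP highest, and no groups overlapped. The log2 fold change of Epha3 was -1.83 in RPT against RP (SE 0.31, adjusted p = 0.000768) and 1.50 in RPTi against RPT (SE 0.31, adjusted p = 0.00199). Epha7 had 4.37, 4.26 and 5.08 CPM in RPTi, 2.20, 1.83 and 2.53 CPM in RPT, and 3.28, 3.51 and 4.46 CPM in RP. Here RPT was below the other groups, which overlapped. Its log2 fold change was -0.78 in RPT against RP (SE 0.18, adjusted p = 0.00657) and 1.06 in RPTi against RPT (SE 0.18, adjusted p = 0.000455).

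Ephb2, a receptor of B-type ephrins, had 52.4, 52.6 and 51.4 CPM in RPTi, 38.2, 38.8 and 33.6 CPM in RPT, and 51.9, 49.8 and 49.4 CPM in RP. RPT stood below groups that lay close together. Ephb2 fell by 0.45 on the log2 scale in RPT against RP (SE 0.07, adjusted p = 0.000405) and rose by 0.50 in RPTi against RPT (SE 0.07, adjusted p = 9.58e-05); RPTi against RP gave 0.05 (adjusted p = 0.651).

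Ephb4, the ephrin-B2 receptor, fell in RPT against RP by 0.34 on the log2 scale (adjusted p = 0.00195). Its rise in RPTi against RPT (0.20, adjusted p = 0.0241) was lost without RPT replicate 3 or RPTi replicate 1 or 2 (adjusted p between 0.0581 and 0.0919) and with library totals alone (adjusted p = 0.12), and its gene overlaps Zan in GRCr8. Epha5, at 0.113, 0.0423 and 0.106 FPKM in RPTi, RPT and RP, fell by 1.32 in RPT against RP (adjusted p = 0.0218) and rose by 1.47 in RPTi against RPT (adjusted p = 0.00853). The Epha5 fall was lost without RP replicate 1 or 2 or RPT replicate 2 or 3 (adjusted p between 0.0521 and 0.0736). Ephb6, whose kinase domain is inactive, fell in RPTi against RP with a log2 fold change of -0.41 (adjusted p = 0.0312), a call lost without RP replicate 1 or 2 or RPTi replicate 1 or 2 (adjusted p between 0.0628 and 0.126). Epha1 and Ephb3 were not called in any comparison. Ephb3 was, however, called lower in RPT against RP without RP replicate 3 or RPT replicate 2 (adjusted p of 0.0483 and 0.0158). With the replicate number as a block it was called lower in RPT against RP and in RPTi against RP (adjusted p of 0.0239 and 0.0461).

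On the FPKM scale the make-up of the Eph receptors and plexins moved with the changes of Epha2 and Plxnb1. Epha2 held 19.0% of the summed Eph receptor FPKM in RPTi, 44.6% in RPT and 27.3% in RP, and Ephb4 held 45.0%, 32.3% and 41.3% in RPTi, RPT and RP. Epha2 thus overtook Ephb4 in RPT, with a ratio of 0.421 in RPTi, 1.38 in RPT and 0.662 in RP. The ratio of Efna1 to its receptor gene Epha2 was 2.81 in RPTi, 1.08 in RPT and 1.27 in RP. In the plexins, the ratio of Plxnb1 to Plxnb2 was 0.193 in RPTi, 0.0343 in RPT and 0.0683 in RP. The semaphorins summed to 263 ± 22.7 FPKM in RPTi, 220 ± 19.0 FPKM in RPT and 286 ± 44.5 FPKM in RP (SD, n = 3 each). The plexins summed to 159 ± 3.47 FPKM in RPTi, 156 ± 10.0 FPKM in RPT and 161 ± 6.29 FPKM in RP, and the Eph receptors to 64.2 ± 0.556, 81.6 ± 5.36 and 79.6 ± 2.07 FPKM in RPTi, RPT and RP (SD, n = 3 each). These sums and ratios are descriptions and were not tested.

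**Figure D4:**
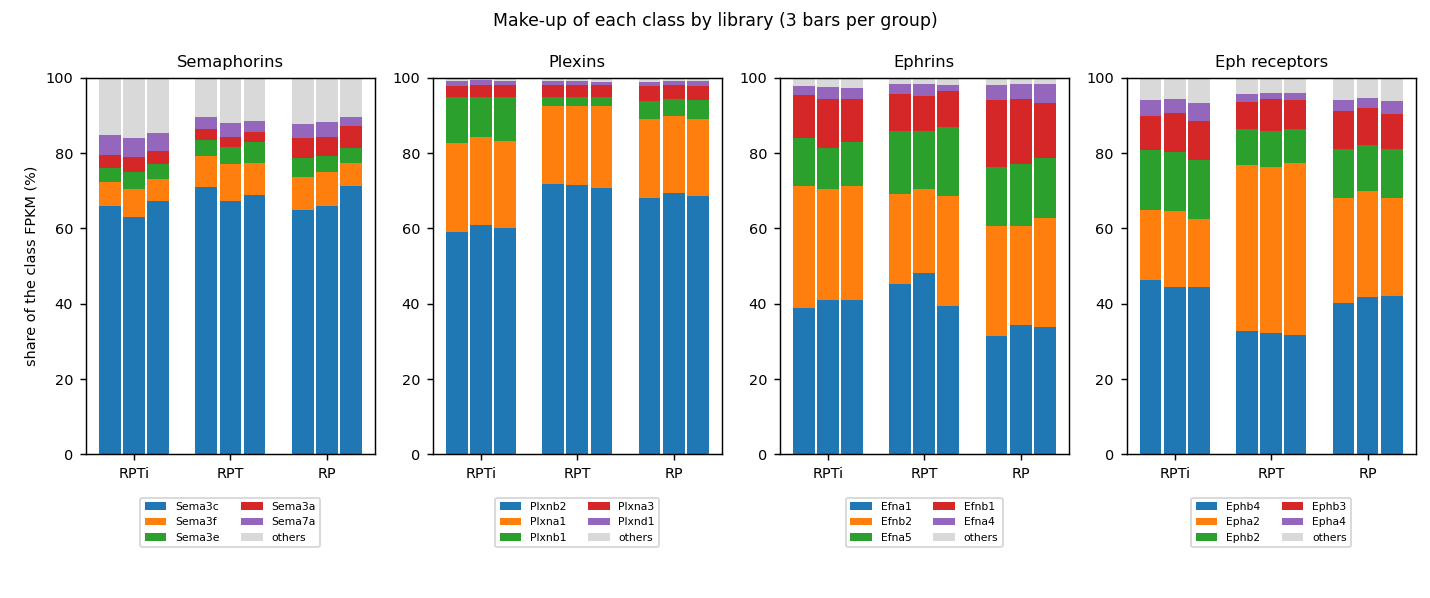
Share of the summed FPKM of each class (percent, stacked bars, 1 bar per library) held by its leading members in RPTi, RPT and RP. Epha2 holds 44.6% of the Eph receptor sum in RPT on average, against 19.0% in RPTi and 27.3% in RP, and Plxnb1 is widest in RPTi, while Sema3c keeps 65.4% of the semaphorin sum in RPTi, 69.0% in RPT and 67.4% in RP.

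The 5 members with too few counts to test were Plxnb3, Efnb3, Epha8, Epha10 and Ephb1. Plxnb3 had 10, 2 and 9 counts in the RPTi libraries, 2, 0 and 0 in RPT, and 0, 2 and 1 in RP. Epha8 had 4, 3 and 3 counts in RPTi, 0 in each RPT library, and 1, 1 and 2 in RP. Ephb1 had 1, 0 and 2 counts in RPTi, 7, 6 and 7 in RPT, and 3, 6 and 2 in RP. Efnb3 ranged from 0 to 10 counts and Epha10 from 0 to 2. At this depth no difference can be read for them.

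Co-receptors and signalling partners were read from lists chosen with earlier results known. Of 27 tested semaphorin co-receptors and effectors, 6 rose and 8 fell in RPT against RP (median log2 fold change -0.075), and 7 rose and 5 fell in RPTi against RPT (median -0.018). In RPTi against RP 7 rose and 4 fell. Over all tested genes 13.6% rose and 15.2% fell in RPT against RP, 20.4% and 21.1% in RPTi against RPT, and 11.9% and 12.3% in RPTi against RP. Nrp1, the neuropilin-1 co-receptor of Sema3a, averaged 61.1 ± 2.00 CPM in RPTi, 15.1 ± 2.11 CPM in RPT and 45.6 ± 3.53 CPM in RP (SD, n = 3 each). It fell by 1.59 on the log2 scale in RPT against RP (SE 0.10, adjusted p = 1.99e-07) and rose by 2.02 in RPTi against RPT (SE 0.10, adjusted p = 7.69e-09) and by 0.42 in RPTi against RP (SE 0.09, adjusted p = 0.00527). Mical2, an actin-oxidising enzyme of the MICAL family, did the opposite, with log2 fold changes of 1.19 in RPT against RP (adjusted p = 2.91e-07) and -1.12 in RPTi against RPT (adjusted p = 1.51e-07).

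Met and Nrp2 were picked after their values were seen, as partners of plexin-B1 and of Sema3f and Sema3c. Met, the receptor tyrosine kinase that associates with plexin-B1, averaged 25.9 ± 2.21 CPM in RPTi, 66.1 ± 4.16 CPM in RPT and 42.5 ± 1.02 CPM in RP (SD, n = 3 each). Its log2 fold change was 0.64 in RPT against RP (adjusted p = 5.04e-05) and -1.35 in RPTi against RPT (adjusted p = 3.24e-08), each opposite in sign to that of Plxnb1. Nrp2 averaged 1102 ± 15.6 CPM in RPTi, 1292 ± 59.4 CPM in RPT and 1800 ± 42.8 CPM in RP (SD, n = 3 each), and fell by 0.48 in RPT against RP (adjusted p = 1.54e-05), by 0.23 in RPTi against RPT (adjusted p = 0.00265) and by 0.71 in RPTi against RP (adjusted p = 8.08e-07).

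Of 26 tested Eph and ephrin effectors, 5 rose and 3 fell in RPT against RP, 4 rose and 11 fell in RPTi against RPT, and 5 rose and 7 fell in RPTi against RP (medians 0.093, -0.033 and -0.098). The shares of all tested genes that rose and fell were 13.6% and 15.2%, 20.4% and 21.1%, and 11.9% and 12.3% in those comparisons. Itsn1, an exchange factor for Cdc42 that works downstream of EphB2, fell in RPT against RP (log2 fold change -0.38, adjusted p = 0.00135) and rose in RPTi against RPT (0.63, adjusted p = 1.29e-05). Abl2, a tyrosine kinase of the cytoskeleton, rose in RPT against RP (0.37, adjusted p = 0.00107) and fell in RPTi against RPT (-0.57, adjusted p = 2.14e-05).

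Markers of other cell types that can express these guidance genes were summed as well. The 9 endothelial markers present summed to 14.1 to 18.4 CPM in RPTi, 15.2 to 20.5 CPM in RPT and 14.0 to 16.0 CPM in RP, and Cdh5, Tie1 and Emcn were at or near 0. The 10 neuron and Schwann cell markers summed to 7.90 to 9.72 CPM in RPTi, 5.82 to 6.69 CPM in RPT and 5.93 to 6.66 CPM in RP. Macrophage markers (6 present) summed to 24.5 to 28.8 CPM in RPTi, 44.5 to 46.3 CPM in RPT and 23.4 to 27.3 CPM in RP, mostly from Cd14. The 8 fibroblast markers summed to 16301 to 17856 CPM in RPTi, 9779 to 10606 CPM in RPT and 16143 to 17308 CPM in RP, and the 7 mural cell markers to 1843 to 1996 CPM in RPTi, 790 to 914 CPM in RPT and 826 to 903 CPM in RP. The 6 osteoblast markers summed to 38.3 to 40.7 CPM in RPTi, 27.0 to 28.3 CPM in RPT and 34.4 to 37.3 CPM in RP. The fibroblast and osteoblast sums were lowest in RPT and the mural sum highest in RPTi, and abundant genes such as Col1a1 and Alpl carried much of the first 2 sums. Single markers did not all follow them. In RPT against RP, 1 fibroblast marker rose and 5 fell of 8, and 1 osteoblast marker fell of 5 tested. In RPTi against RPT, 2 fibroblast markers rose and 3 fell (median log2 fold change 0.048), and 1 osteoblast marker rose and 2 fell (median -0.15). Of 6 tested mural cell markers, 2 rose and 2 fell in RPT against RP, and 4 rose in RPTi against RPT. Of 4 tested endothelial markers, 2 rose in RPT against RP and 2 fell in RPTi against RPT. Among 3 tested macrophage markers, 2 rose and 1 fell in RPT against RP, and 2 fell in RPTi against RPT. Among 6 tested neuron and Schwann cell markers, 1 fell in RPT against RP and 1 rose in RPTi against RPT. In RPTi against RP, 5 mural cell markers rose, 3 fibroblast markers fell, and 1 osteoblast marker rose and 2 fell. There 2 neuron and Schwann cell markers rose and 1 fell, 1 endothelial marker fell, and no macrophage marker was called. The shares of all tested genes called were 28.9% in RPT against RP, 41.5% in RPTi against RPT and 24.2% in RPTi against RP. The part of these markers in the member results was not tested.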

How the data were processed

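The authors deposited raw read counts per gene for 9 libraries, with FPKM values beside them. HISAT2, HTSeq 0.11.2, DESeq2 1.26.0 and the build Rnor_6.0 are named in the submitters' processing notes. The strand setting is not given in the sources used here, nor are the HISAT2 version and annotation release, so reads of overlapping or antisense genes cannot be separated. The deposited FPKM equalled count per gene length per library total within a relative difference of 2.54e-13.

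Groups and replicate numbers came from the sample titles. Genes were kept by filterByExpr (minimum count 10, minimum total 15), which asks for 0.273 CPM, before TMM factors, in 3 libraries and left 13856 genes. None of the 45 tested members passed it through 1 group alone. Counts were scaled by TMM and fitted in edgeR 4.0.16 under R 4.3.3 (glmQLFit, glmQLFTest) over all 9 libraries, 1 coefficient per group. Adjusted p-values are Benjamini-Hochberg values over all tested genes, with a threshold of 0.05, and all come from this two-sided test unless another tool is named. The procedure was tested on simulated data with known changes. Alternatives were DESeq2 1.42.0, limma 3.58.1 on log2(FPKM + 1), DESeq2 size factors, library totals alone, other filters, the contrast's 2 groups alone, a replicate block and leaving out each library.

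Members, lists and tests were chosen with earlier results of these data known. Full values went to the tested members of each class with the smallest F test p, up to 4 a class, and to members called with an absolute log2 fold change of at least 1 and a mean of at least 1 CPM, 19 in all; Sema3c, Sema4d, Sema6b, Sema7a and Plxnb2 were added after their values were seen. The rule named 2 genes from each pathway list reported, and Met and Nrp2 were added; 1 further list is not reported here. Replicates differed by more than sampling noise. Promoter windows are from RefSeq, assembly GRCr8, another build than the counts; they served only to show sequence. Gene overlaps are from the same assembly.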

Additional observations from a re-analysis of the deposited data

How the results depend on the processing

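Over 17 alternative settings no called member value changed sign; 34 of 2273 values did, none of them called under either setting. Of the called members, 16 of 26 in RPT against RP, 21 of 27 in RPTi against RPT and 8 of 17 in RPTi against RP kept their call in every setting that could be run. Members not called gained a call in some setting in 4 of 19, 5 of 18 and 7 of 28 cases in those comparisons. Leaving out 1 library gave 2 to 4 rises and 16 to 22 falls in RPT against RP, 18 to 21 rises and 5 to 9 falls in RPTi against RPT, and 5 to 9 rises and 4 to 12 falls in RPTi against RP, while the F test called 28 to 35 members. The shares of all tested genes moved too: 9.27% to 13% rose and 11.4% to 15.2% fell in RPT against RP. They were 17% to 20.6% and 16.9% to 21.5% in RPTi against RPT, and 8.06% to 13.8% and 8.2% to 14.6% in RPTi against RP. The F test called 38.2% to 46.7% of all genes. DESeq2 called 3 rises and 21 falls, 20 and 6, and 8 and 8 in those comparisons. Its shares of all genes were 14% and 14.5%, 18.1% and 18.9%, and 12.4% and 12.2%. With the replicate number as a block, 4 members rose and 23 fell in RPT against RP, 21 rose and 7 fell in RPTi against RPT, and 9 rose and 12 fell in RPTi against RP, and the F test called 39. The shares of all genes rose with the block too, to 18.1% and 18.5%, 23.5% and 24.8%, and 16.8% and 17.0% in those comparisons and to 56.3% in the F test, against 46.7% without it. The labels do not say whether equal numbers pair the samples. Deviations of same-numbered libraries correlated at -0.114 to 0.124, and 3 of 9 libraries correlated best with their own number. This check showed no pairing but cannot exclude it. Sema5b, Sema6b, Plxna4, Plxnc1 and Epha5, at 0.0784 to 2.06 CPM over the libraries, rest on few reads. A call on each was lost when some single library was left out. Epha3 had only 30, 27 and 10 counts in the RPT libraries, but its calls in RPT against RP and RPTi against RPT held in every setting. A setting that leaves out a library also has fewer samples. The cause of other lost calls was not tested.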

Other observations

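Other guidance families were read from a list of netrin, slit and RGM genes chosen with earlier results known. Of 21 tested, 2 rose and 10 fell in RPT against RP, 10 rose and 3 fell in RPTi against RPT, and 6 rose and 4 fell in RPTi against RP. Of all tested genes, 13.6% rose and 15.2% fell, 20.4% rose and 21.1% fell, and 11.9% rose and 12.3% fell in those comparisons. The median log2 fold changes were -0.38, 0.36 and 0.18, beside -0.00071, -0.0083 and -0.0064 over all tested genes. Neo1, the receptor neogenin, averaged 486 ± 8.77 CPM in RPTi, 241 ± 16.4 CPM in RPT and 359 ± 6.61 CPM in RP (SD, n = 3 each), with log2 fold changes of -0.57 in RPT against RP (adjusted p = 1.13e-05), 1.01 in RPTi against RPT (adjusted p = 3.09e-08) and 0.44 in RPTi against RP (adjusted p = 0.000146). Its ligand gene Rgma averaged 80.1 ± 3.42 CPM in RPTi, 40.7 ± 2.37 CPM in RPT and 63.0 ± 4.59 CPM in RP, with log2 fold changes of -0.63 (adjusted p = 4.51e-05), 0.98 (adjusted p = 4.08e-07) and 0.35 (adjusted p = 0.00427) in the same comparisons. Ligand and receptor genes thus both fell in RPT against RP and rose in RPTi against RPT, comparisons that share the RPT libraries. The p-values here are from the edgeR test.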
